A study of Homo sapiens with 6 samples.

Results

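Secretory epithelial genes were examined in SW620, an established line of human colorectal cancer cells that was grown from a metastasis in a lymph node. The set held 10 listed genes of the goblet, mucin, trefoil and enteroendocrine programme, out of 20476 genes in the count table. They were the regulators ATOH1 and SPDEF, the secretory pathway protein gene AGR2, the trefoil genes TFF1 and TFF3, the mucin genes MUC1, MUC2, MUC12 and MUC13, and CHGA. All 10 had a row in the table. The cells stably carried either a short hairpin RNA against ECM1, a secreted matrix glycoprotein (shECM1, 3 libraries), or a negative control hairpin (shNC, 3 libraries). The labels also name colorectal cancer tissue, and their protocols describe total RNA as well as droplet single-cell libraries, and they leave unsaid whether each column holds bulk RNA or counts added up over single cells. Nothing says that the 3 libraries of a group came from separate cultures. No other treatment, time point or allele is named, and how many hairpins were used, or whether each line was 1 clone, is not given in the sources used here. The study asked how ECM1 bears on the chemokine gene CCL20. The table's columns were matched to the groups by their letters and numbers, so each direction below rests on that reading of the names and would reverse under the opposite one.

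Goblet cells of the intestinal epithelium make the mucus layer, and enteroendocrine cells release hormones. ATOH1, a basic helix-loop-helix transcription factor held down by Notch signalling, starts the secretory fate, and SPDEF drives goblet cell maturation. MUC2 is the gel-forming mucin of colonic mucus, and AGR2 is a disulfide isomerase of the endoplasmic reticulum that is needed for MUC2 folding. TFF1 and TFF3 are small secreted trefoil peptides that act in repair of the mucosa. MUC1, MUC12 and MUC13 are membrane-bound mucins of the cell surface, and CHGA is a granule protein of neuroendocrine cells.

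The control region of a gene is the stretch where its transcription factors bind, and 3 are shown. They belong to genes whose groups did not overlap, with both directions among them. SPDEF, which had few counts, also had groups without overlap and is not shown. MUC2 and MUC13 had lower levels in shECM1, and AGR2 had higher levels. The RefSeq promoter table (build GRCh38.p14) held 8 of the 10 genes, and TFF1 and TFF3 were without an entry. Each run below gives the 250 bases before the RefSeq start, 5′ to 3′ on the gene's strand. The MUC2 window is chr11:1074624-1074873 on the plus strand, the MUC13 window is chr3:124934752-124935001 on the minus strand, and the AGR2 window is chr7:16805000-16805249 on the minus strand. The MUC13 and AGR2 windows lie inside the GENCODE 29 spans of these genes given below, which begin farther upstream. Which start these cells use was not tested. Capitals mark matches on either strand to 5 motifs.
MUC2: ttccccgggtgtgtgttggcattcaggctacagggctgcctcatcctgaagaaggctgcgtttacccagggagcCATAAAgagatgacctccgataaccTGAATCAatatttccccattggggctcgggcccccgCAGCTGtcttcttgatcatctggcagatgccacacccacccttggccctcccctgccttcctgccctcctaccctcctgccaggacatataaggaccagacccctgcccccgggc
MUC13: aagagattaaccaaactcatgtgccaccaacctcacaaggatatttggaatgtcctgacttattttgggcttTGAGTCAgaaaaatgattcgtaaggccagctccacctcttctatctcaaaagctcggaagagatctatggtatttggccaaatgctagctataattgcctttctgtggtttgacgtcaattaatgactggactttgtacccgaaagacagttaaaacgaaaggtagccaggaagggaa
AGR2: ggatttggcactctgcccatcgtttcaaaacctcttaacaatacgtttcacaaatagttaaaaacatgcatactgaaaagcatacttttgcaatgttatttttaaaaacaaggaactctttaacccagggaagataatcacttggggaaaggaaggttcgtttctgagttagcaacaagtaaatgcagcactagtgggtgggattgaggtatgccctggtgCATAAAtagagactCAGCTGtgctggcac
The motifs were TTTATG, the core bound by CDX factors, TGANTCA, bound by AP-1, the TATA box core TATAAA, the GC box GGGCGG, and the E-box CAGCTG. The MUC2 window held TTTATG on the opposite strand at 176 to 171 bases before the start, TGANTCA at 151 to 145, and CAGCTG at 115 to 110. The MUC13 window held TGANTCA at 178 to 172. The AGR2 window held TTTATG on the opposite strand at 29 to 24 and CAGCTG at 15 to 10. No match overlapped another, and none of the 3 windows held the TATA box or the GC box in these letters. Of 35116 promoter windows of the same length, 9.64% held TTTATG, 6.57% held TGANTCA, 10.7% held TATAAA, 42.6% held GGGCGG and 14% held CAGCTG. These matches are descriptions of the letters. The gene of 1 such factor, CDX2, which acts in intestinal epithelium, had 14.6 ± 4.58 CPM (depth-scaled counts) in the controls and 18.1 ± 5.21 in the knockdown (SD, n = 3 each), a log2 fold change of 0.31 ± 0.25 (SE).

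Library totals ran from 9881720 to 16813951 counts. ECM1, the targeted gene, was at 38.8, 19 and 52.3 CPM in shNC replicates 1, 2 and 3 and at 14.8, 13.6 and 8.41 CPM in the shECM1 replicates. CPM (counts-per-million) are relative to the library total, adjusted by edgeR's TMM factors. The control libraries stood apart from each other: the first principal component of all tested genes, with 58.1% of the variance, placed shNC replicate 2 at 8.64, shNC replicates 1 and 3 at -25.2 and -41.3, and the shECM1 libraries at 16.6 to 23.3. The epithelial markers of the line were high, with EPCAM at 471.6 ± 25.8 CPM and KRT8 at 7441 ± 1380 CPM in shNC (SD, n = 3). Colorectal markers differed widely in shNC, with VIL1 at 382.9 ± 27.9 CPM, CDH17 at 7.56 ± 0.398, KRT20 at 1.4 ± 0.352 and LGALS4 at 0.79 ± 0.325. CDX1 was nearly absent, with 1 count in total over all libraries.

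No member was called by edgeR's quasi-likelihood test over all genes, with Benjamini-Hochberg adjustment and a threshold of 0.05, and the background was 0% of 12576 genes tested. The filter on low counts kept 7 of the 10 members. Of these, MUC2, MUC13, MUC1 and TFF1 were lower in shECM1 at an unadjusted p under 0.05 and none was higher, beside 22.5% of all genes in either direction, 14.2% lower and 8.31% higher. Of the 7, 6 had a negative and 1 a positive log2 fold change (median -0.44), where 48.6% of all genes were negative and 51.4% positive. Every shECM1 library lay below every shNC library for MUC2, MUC13, TFF1 and SPDEF, and above for AGR2, beside 24.4% of all genes, 13.2% on the lower side and 11.2% on the higher side. DESeq2 called MUC2 and MUC13 lower, where it called 5.48% of all genes, 4.61% lower and 0.875% higher. In edgeR without shNC replicate 2, MUC2, MUC13, TFF1, MUC1 and TFF3 were called lower, beside 23.9% of all genes called, 14.1% lower and 9.73% higher. Without shNC replicate 3, MUC2 and MUC13 alone stayed at an unadjusted p under 0.05. In all 7 tested members, shNC replicate 2 was the control library nearest to the shECM1 mean, and in 5 of them shNC replicate 3 was the farthest. Fewer cells of a secretory type and less RNA per cell cannot be told apart in such libraries.

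**Figure D1:**
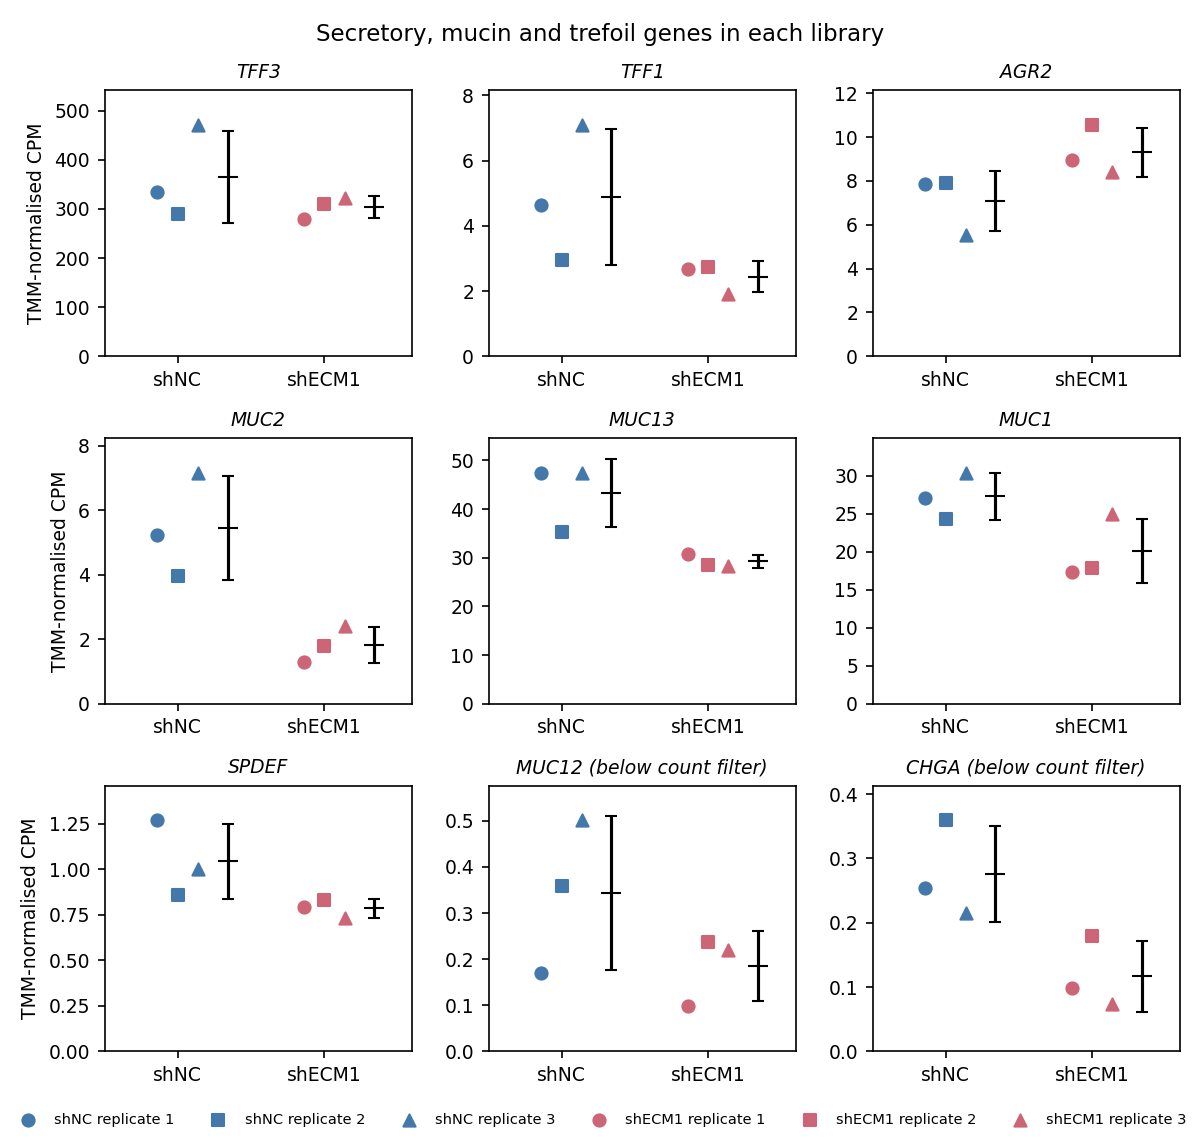
CPM of 9 members in each library (vertical axes, linear and starting at 0, a scale of its own in each panel), with shNC in blue and shECM1 in red; the marker shape gives the replicate number and the black bar the mean ± SD (n = 3). MUC2 and MUC13 show separate groups, TFF3 and MUC1 overlap, and AGR2 is the one panel with the shECM1 points on top among the 7 tested genes. ATOH1, with 0 counts in every library, is not drawn.

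The master regulator of the secretory fate was not detected. ATOH1 (ENSG00000172238, GRCh38 chromosome 4, 93828753 to 93830964, plus strand) had 0 counts in all 6 libraries. A count of 0 allows up to 3 counts in a library, which is 0.179 to 0.298 CPM at these depths and covers counting error only. SPDEF (ENSG00000124664, chromosome 6, 34537802 to 34556333, minus strand) had few counts, with 15, 12 and 14 counts in shNC replicates 1, 2 and 3 and 8, 14 and 10 in the shECM1 replicates. Scaled to depth, SPDEF was at 1.27, 0.862 and 1 CPM in shNC and at 0.794, 0.834 and 0.732 CPM in shECM1. The groups did not overlap, but shNC replicate 2 and shECM1 replicate 2 lay next to each other. SPDEF had a log2 fold change of -0.39 ± 0.36 (SE) and its edgeR adjusted p was 0.53.

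Most other listed regulators that bear on the goblet programme had counts, at widely different levels. From a list of 15 regulators, 12 were tested, 9 had a negative and 3 a positive log2 fold change, and none was called. The list's median log2 fold change was -0.18, beside 0.01 over all genes tested. Of the 12, 3 had every shECM1 library below every shNC library and 1, CREB3L4, had every one above. Over all genes tested, 13.2% lay below in this way and 11.2% above. ATOH1 and FOXA1 were the 2 regulators with 0 counts in every library. ERN2 had 2 to 7 counts per library and was not tested, and CREB3L1 ran from 0.397 to 2.62 CPM. XBP1, a regulator of the unfolded protein response, had nearly equal levels, 242.4 ± 3.11 CPM in the controls and 238 ± 19.1 in the knockdown (SD, n = 3 each). ELF3, an epithelial ETS factor, had 155 ± 34.9 CPM in the controls against 103.9 ± 9.65, without overlap (log2 fold change -0.58 ± 0.16 SE, edgeR adjusted p = 0.105, DESeq2 adjusted p = 0.0186). HNF4A, a nuclear receptor of intestinal and liver epithelium, was at 72.5 ± 15.2 against 53.4 ± 3.15 CPM, with a log2 fold change of -0.44 ± 0.15 (SE).

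Genes of the Notch pathway, which represses ATOH1, were read beside the regulators. Of 17 Notch ligands, receptors and targets, 14 were tested, with 9 negative, 5 positive and 0 called by edgeR. The ligand gene JAG1 had 490.3 ± 125 CPM in the controls against 321.9 ± 52.2 in the knockdown. The groups of JAG1 did not overlap, and it was called lower by DESeq2 (log2 fold change -0.61 ± 0.18 SE in edgeR, DESeq2 adjusted p = 0.0246). DLL1, another ligand gene, separated the groups the other way, at 1.25 ± 0.296 CPM in the controls and 1.91 ± 0.131 in the knockdown. Its log2 fold change was 0.61 ± 0.31 (SE). Over all genes, 24.4% separated the groups in either direction, and DESeq2 called 5.48%. MFNG, a glycosyltransferase that modifies Notch, was at 79.6 ± 5.65 and 82.4 ± 21.8 CPM. HES4, of the HES repressor family, was at 14.5 ± 4.79 and 9.32 ± 1.02 CPM. HES1, the Notch target that represses ATOH1, was at 33.5, 30 and 34.5 CPM in shNC and at 29, 24.5 and 36.7 CPM in shECM1. HES1 was therefore expressed in every library, with overlapping groups (log2 fold change -0.12 ± 0.15 SE).

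AGR2 (ENSG00000106541, chromosome 7, 16791811 to 16833433, minus strand) was the 1 tested member with a positive log2 fold change. AGR2 was at 7.87, 7.9 and 5.51 CPM in shNC replicates 1, 2 and 3 and at 8.94, 10.5 and 8.41 CPM in the shECM1 replicates, from 77 to 177 counts. Every shECM1 library lay above every shNC library. AGR2 had a log2 fold change of 0.40 ± 0.20 (SE), and edgeR did not call it (adjusted p = 0.261), nor did DESeq2 (adjusted p = 0.328). Its log2 fold change ran from 0.24 without shNC replicate 3 to 0.50 without shNC replicate 2.

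Folding enzymes of the endoplasmic reticulum were abundant in both groups. Of a list of 16 such genes, AGR2 included, 14 were tested, 12 had a positive and 2 a negative log2 fold change, and 0 were called by edgeR. The list's median was 0.08. P4HB, the main protein disulfide isomerase, had 1381 ± 24.6 CPM in the controls and 1367 ± 26.3 in the knockdown. The chaperone gene HSPA5 had 996.6 ± 55.8 and 927.4 ± 70.5 CPM. PDIA3, another disulfide isomerase, had 561.4 ± 22.8 and 630.3 ± 9.73 CPM. Of the 14 tested, 4 genes, AGR2, PDIA3, TXNDC5 and TMX1, had every shECM1 library above every shNC library. Over all genes tested, 11.2% did so, and 24.4% separated the groups in either direction. TXNDC5 was at 102.1 ± 14.5 and 123.8 ± 11.2 CPM, and TMX1 at 70.7 ± 4.74 and 84.3 ± 5.55 CPM, with log2 fold changes of 0.28 ± 0.13 and 0.25 ± 0.11 (SE). AGR3, the neighbour and closest relative of AGR2, had 0 to 8 counts per library and was not tested.

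TFF3 (ENSG00000160180, chromosome 21, 42311667 to 42315651, minus strand) was by far the most abundant member. TFF3 was at 334.1, 290.1 and 470.6 CPM in shNC replicates 1, 2 and 3 and at 279.5, 310.5 and 321.7 CPM in the shECM1 replicates. The groups overlapped, because shNC replicate 2 lay below shECM1 replicates 2 and 3. The mean was 364.9 ± 94.1 CPM in shNC and 303.9 ± 21.9 in shECM1 (SD, n = 3 each), a log2 fold change of -0.26 ± 0.16 (SE) with an edgeR adjusted p of 0.337. Without shNC replicate 3, the highest library, the log2 fold change was -0.04. Without shNC replicate 2, it was -0.39 and was called (adjusted p = 0.0477).

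TFF1 (ENSG00000160182, chromosome 21, 42362282 to 42366594, minus strand) lies in the same gene cluster at a much lower level. TFF1 was at 4.65, 2.94 and 7.09 CPM in shNC and at 2.68, 2.74 and 1.9 CPM in shECM1, from 26 to 99 counts. The groups did not overlap, but shNC replicate 2 stood only just above shECM1 replicate 2. TFF1 had a log2 fold change of -1.003 ± 0.33 (SE), a 2-fold lower fitted level, and was not called (edgeR adjusted p = 0.129, DESeq2 adjusted p = 0.083). It was -0.63 without shNC replicate 3 and -1.26 without shNC replicate 2, where edgeR called it (adjusted p = 0.00671). TFF2, the third gene of the cluster, between TFF3 and TFF1 on chromosome 21, was at 15.6, 10.1 and 16.6 CPM in shNC and at 9.53, 9.12 and 12.1 CPM in shECM1. The groups of TFF2 overlapped, and its log2 fold change was -0.46 ± 0.21 (SE). All 3 trefoil genes therefore had negative log2 fold changes, with 0 called by edgeR or DESeq2 in all 6 libraries. Whether the fold changes of the 3 differ was not tested.

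MUC2 (ENSG00000198788, chromosome 11, 1074875 to 1110511, plus strand) had the largest fold change among the members. MUC2 was at 5.25, 3.95 and 7.16 CPM in shNC replicates 1, 2 and 3 and at 1.29, 1.79 and 2.41 CPM in the shECM1 replicates. The highest shECM1 library lay below the lowest shNC library. These levels came from 55 to 100 counts per shNC library and 13 to 33 per shECM1 library. The log2 fold change was -1.55 ± 0.31 (SE), a 2.93-fold lower fitted level, and it ranked 49 among the most negative of the 12576 genes tested. The edgeR adjusted p was 0.0973, the smallest value any gene reached, but a tied value that MUC13, MUC5AC and ECM1, among others, shared. The unadjusted edgeR p of MUC2 was 0.000357, and that of COL1A1 was smaller at 0.000263. DESeq2 called MUC2 lower (adjusted p = 0.00244). The log2 fold change stayed between -1.30 and -1.79 when any 1 library was left out.

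MUC5AC and MUC5B, secreted mucins of airway and stomach, and MUC6, a gastric mucin, lie beside MUC2 on chromosome 11. MUC5AC was at 12.4, 10.8 and 12.9 CPM in shNC and at 4.27, 6.32 and 8.34 CPM in shECM1, with no overlap. Its log2 fold change was -0.92 ± 0.23 (SE, edgeR adjusted p = 0.0973, DESeq2 adjusted p = 0.0116). MUC5B and MUC6 had log2 fold changes of -0.14 ± 0.25 and -0.15 ± 0.28 (SE), with overlapping groups. Whether the fold changes of the 4 neighbours differ was not tested.

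MUC13 (ENSG00000173702, chromosome 3, 124905442 to 124953819, minus strand) also separated the groups, at a higher level than MUC2 on the CPM scale. MUC13 was at 47.5, 35.2 and 47.3 CPM in shNC replicates 1, 2 and 3 and at 30.9, 28.5 and 28.4 CPM in the shECM1 replicates, from 311 to 661 counts. The shECM1 libraries lay close together and below all 3 controls, of which shNC replicate 2 was the lowest. The log2 fold change of MUC13 was -0.57 ± 0.14 (SE), a 1.48-fold lower fitted level, with an edgeR adjusted p of 0.0973 and a DESeq2 adjusted p of 0.0175.

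MUC1 (ENSG00000185499, chromosome 1, 155185824 to 155192916, minus strand) was lower on average but overlapped. MUC1 was at 27.2, 24.3 and 30.4 CPM in shNC and at 17.4, 17.9 and 25 CPM in shECM1. The groups overlapped because shECM1 replicate 3 exceeded shNC replicate 2. MUC1 had a log2 fold change of -0.44 ± 0.16 (SE) with an edgeR adjusted p of 0.158. Without shECM1 replicate 3 it was -0.63, and without shNC replicate 2 it was -0.50 and was called (adjusted p = 0.0462). MUC12 (ENSG00000205277, chromosome 7, 100969623 to 101018949, plus strand) was nearly absent, with 2, 5 and 7 counts in shNC and 1, 4 and 3 in shECM1. It did not pass the filter and was not tested. Its neighbours MUC3A and MUC17 had 1 to 15 and 0 to 2 counts per library. Mucin genes hold tandem repeats, and the handling of reads that match several places was not stated, which leaves their counts uncertain.

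The mucin family as listed held 19 genes. It included the sialomucins CD164 and EMCN, and also MCAM, the gene of an adhesion molecule that is not a mucin. Of the 19, 10 were tested and 4 had 0 counts in every library. Of the 10, which include the members MUC1, MUC2 and MUC13, 9 lay below 0 on the log2 scale, where 48.6% of all genes did. MUC20 lay above 0, at 0.42 ± 0.34 (SE). The median of the 10 was -0.50 beside 0.01 over all genes, and 0 were called by edgeR. DESeq2 called 4 of them lower, MUC2, MUC13, MUC5AC and MCAM, where it called 5.48% of all genes, 4.61% lower. CD164, the most abundant, had 147.8 ± 14.6 CPM in the controls and 141.8 ± 3.83 in the knockdown, and MCAM had 7.43 ± 1.41 and 4.1 ± 0.477 CPM. The longest transcripts of MUC2, MUC6, MUC5AC and MUC5B had a GC content of 60.3% to 64.5%, and that of CD164 had 34.9%. Over all genes tested, the median log2 fold change was -0.20 at 60% to 65% GC. The part of GC content in the values of this list was not tested.

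**Figure D2:**
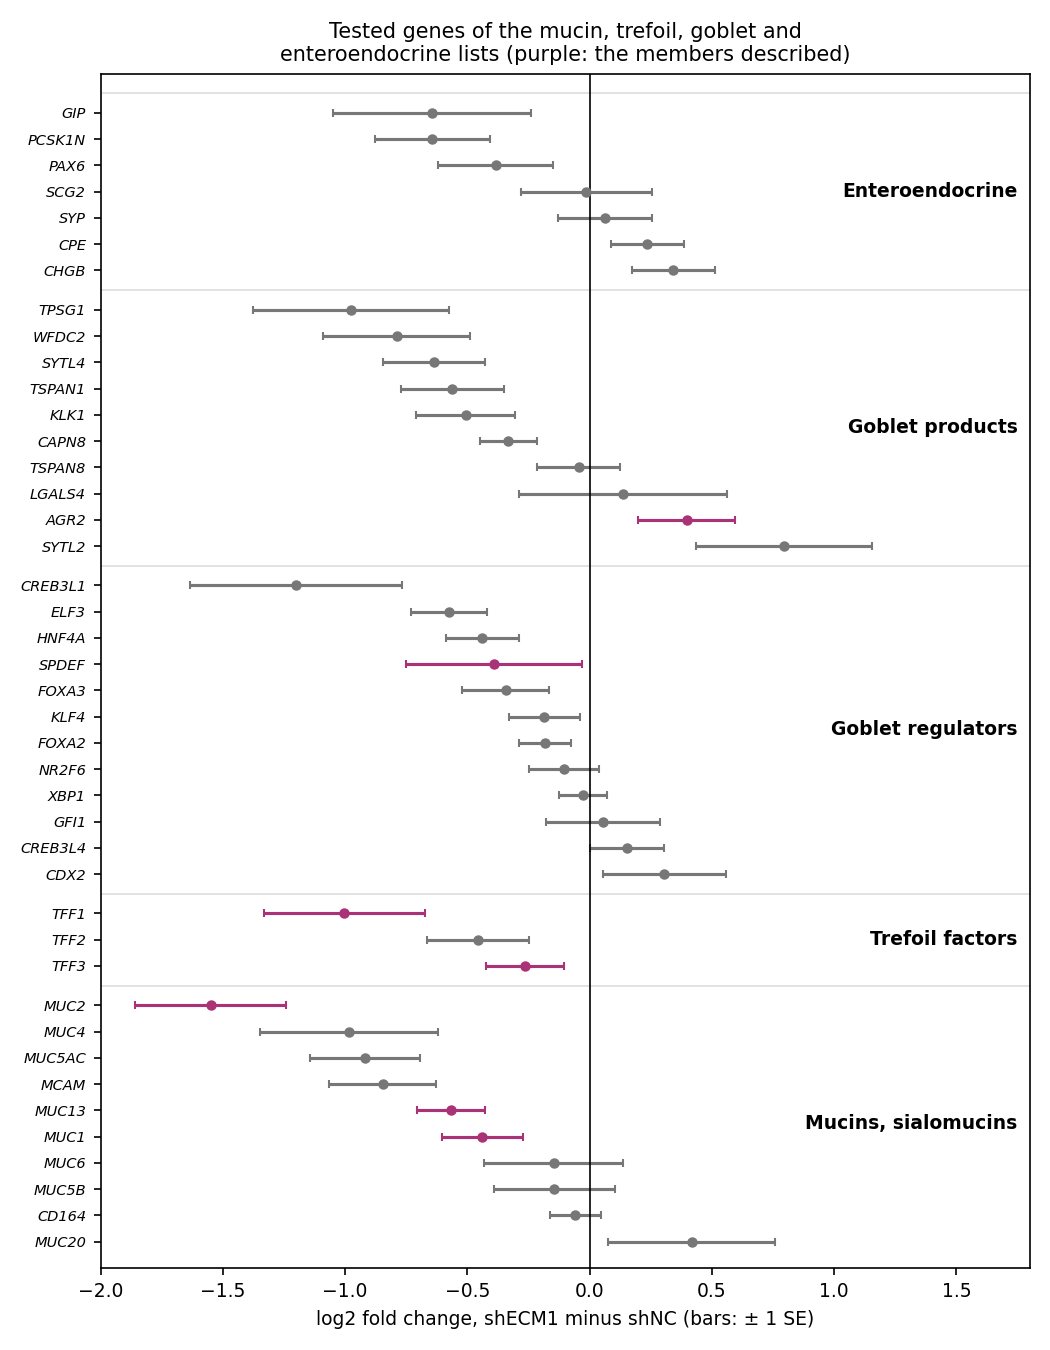
Log2 fold change (horizontal axis, shECM1 minus shNC, bars ± 1 SE) of tested genes of the mucin, trefoil, goblet regulator, goblet product and enteroendocrine lists (1 goblet product is not drawn), with the 7 tested members in purple. MUC2 lies farthest left at -1.55, and AGR2 is the one purple point right of 0.

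Other products of goblet cells and the enzymes that glycosylate mucins were read beside the members. Of 27 goblet products, AGR2 included, 11 were tested, with 8 negative and 3 positive and a median of -0.51. CLCA1, REG4, ITLN1, RETNLB and SPINK4, secreted proteins of goblet and other secretory cells, had 0 counts in every library. CAPN8, a calpain of gastric mucus cells, had 41.1 ± 3.44 CPM in the controls and 32.7 ± 1.14 in the knockdown. WFDC2 and SYTL4 had log2 fold changes of -0.79 ± 0.30 and -0.64 ± 0.21 (SE). Of 31 genes of mucin O-glycosylation, 25 were tested, with 19 negative and 6 positive and a median of -0.13. ST3GAL1, a sialyltransferase, was at 2.96, 2.01 and 4.15 CPM in shNC and at 1.39, 0.953 and 0.878 CPM in shECM1, and DESeq2 called it lower (adjusted p = 0.0252). GALNT7, an enzyme of O-glycan synthesis, went the other way, with 65.2 ± 18.3 CPM in the controls, 89.4 ± 2.55 in the knockdown and a log2 fold change of 0.46 ± 0.17 (SE). B3GNT3 and ST3GAL2, which also build these glycans, had log2 fold changes of -0.43 ± 0.15 and -0.62 ± 0.21 (SE). SYTL2, a goblet product at a low level, had 0.927 ± 0.0783 CPM in the controls and 1.65 ± 0.505 in the knockdown, without overlap. None of these genes was called by edgeR. Over all the lists, 88 genes were tested beside the members. Of the 88, 10 had every shECM1 library below every shNC library and 10 had every one above. Over all genes tested, 13.2% lay below in this way and 11.2% above.

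CHGA (ENSG00000100604, chromosome 14, 92923080 to 92935293, plus strand) was barely detected. It had 3, 5 and 3 counts in shNC replicates 1, 2 and 3 and 1, 3 and 1 in the shECM1 replicates, and it was not tested. Of 30 enteroendocrine genes, CHGA included, 11 had 0 counts in every library, among them the lineage factors NEUROG3, NEUROD1, INSM1 and RFX6, and 7 were tested. The 4 negative and 3 positive log2 fold changes had a median of -0.01, and 0 were called by edgeR or DESeq2. The granule genes CPE and CHGB were at 12.2 ± 1.32 and 8.69 ± 1.07 CPM in shNC and at 14.3 ± 0.605 and 11 ± 0.862 in shECM1. Their log2 fold changes were 0.24 ± 0.15 and 0.34 ± 0.17 (SE). Of the 7 tested genes, these 2 had every shECM1 library above every shNC library, as 11.2% of all genes did, and 0 had every one below. PCSK1N and PAX6 had log2 fold changes of -0.64 ± 0.24 and -0.38 ± 0.24 (SE), with overlapping groups.

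Levels can be set against each other only per length. On the scale of CPM per kilobase of merged exons, in shNC, TFF3 stood at 312.4 ± 80.6, MUC13 at 12.4 ± 2.01, TFF1 at 8.88 ± 3.78, MUC1 at 5.79 ± 0.644 and AGR2 at 2.49 ± 0.481 (SD, n = 3 each). SPDEF followed at 0.546 ± 0.108, MUC2 at 0.43 ± 0.127, CHGA at 0.0889 ± 0.0241 and MUC12 at 0.02 ± 0.00972. In shNC the ranges over the 3 libraries overlapped between MUC13 and TFF1, between TFF1 and MUC1, and between SPDEF and MUC2. The genes were read in the same libraries, and this order was not tested. In shECM1 the ranges of MUC13 (8.11 to 8.82) and TFF1 (3.45 to 4.97) were apart, as were those of SPDEF (0.382 to 0.436) and MUC2 (0.102 to 0.191), and those of TFF1 and MUC1 (3.68 to 5.31) overlapped. TFF3 ranked 130 of 20244 genes on this scale over all 6 libraries, and MUC13, the next member, ranked 3878. On the CPM scale, without division by length, TFF3 gave 78% to 83.2% of the sum of the 10 genes. The labels' protocols also describe droplet libraries read from the transcript end, for which a value per length would understate long genes such as MUC2.

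The fold changes of the members were set beside GC content, because over all genes tested the log2 fold change was lower at higher GC. Across genes, which are not independent replicates, Pearson's r was -0.375. The median log2 fold change was 0.10 at 40% to 45% GC and -0.20 at 60% to 65% GC. The longest transcript had a GC content of 41.5% in AGR2, 44.7% in MUC13, 54.9% in TFF3, 56.1% in TFF1, 61.6% in MUC2, 64.6% in SPDEF and 71.2% in MUC1. With a trend on GC content removed from each library, an alternative chosen after seeing the data, the log2 fold change of MUC13 was -0.63, of MUC2 -1.33, of TFF1 -0.84 and of AGR2 0.31. That of MUC1 was -0.13, of SPDEF -0.13 and of TFF3 -0.14. The part of GC content in the group difference was not tested beyond this.

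**Figure D3:**
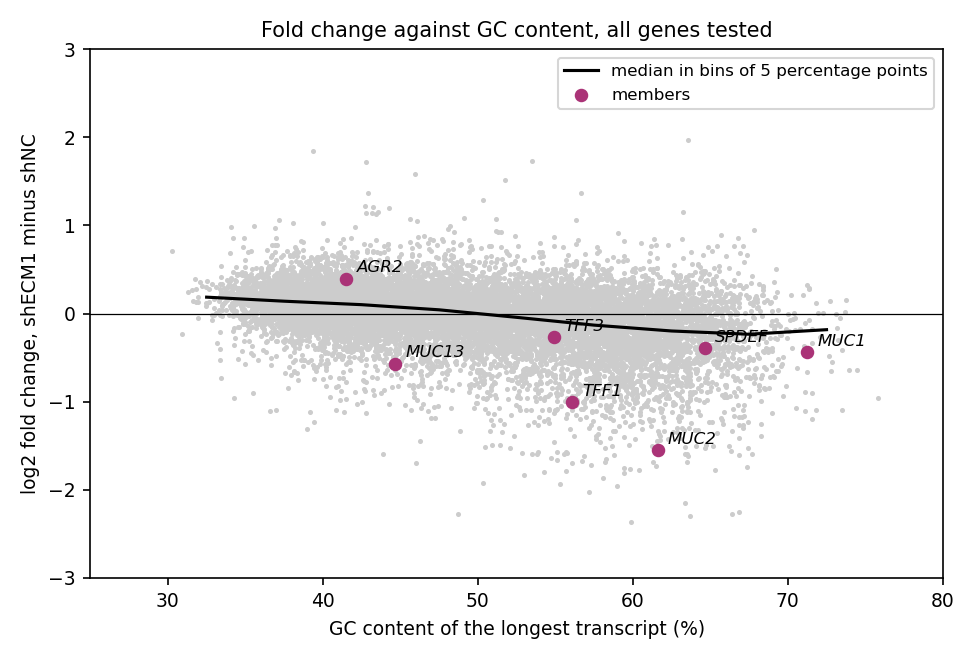
Log2 fold change (vertical axis, shECM1 minus shNC) against GC content of the longest transcript (horizontal axis, percent) for all genes tested in grey, with the median per bin of 5 percentage points as a black line and the 7 tested members in purple. The 6 members with a negative log2 fold change lie below the line, MUC2 the farthest, and AGR2 lies above it.

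**Figure D4:**
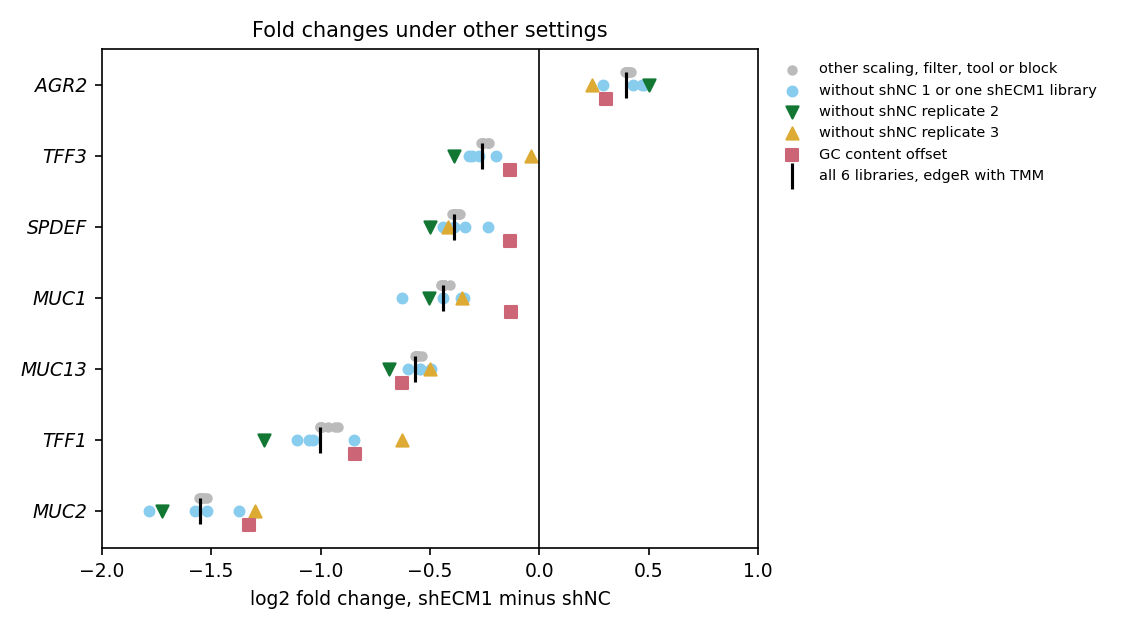
Log2 fold change (horizontal axis, shECM1 minus shNC) of each tested member under every alternative, with the value from all 6 libraries as a black tick. The alternatives run from -1.79 to -1.30 for MUC2, from -1.26 to -0.63 for TFF1 and from -0.68 to -0.49 for MUC13. TFF3 reaches -0.04 without shNC replicate 3, and no member crosses 0.

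The genes with the most similar pattern over the 6 libraries were found by Pearson's r of log2 CPM among 11577 genes, for members with a mean of at least 5 CPM. For MUC13 they were HOXB6, FOSL2 and ARHGAP1 (r of 0.998, 0.998 and 0.994), and 1184 genes had an r over 0.9. For MUC1 they were SBK3, SLCO4A1 and KCNH2 (r of 0.997, 0.997 and 0.996). For TFF3 they were TWF2, MKRN1 and BRI3 (r of 0.988, 0.987 and 0.981). For AGR2 they were APTX, PAWR and CCZ1 (r of 0.988, 0.987 and 0.985). These values describe the same 6 libraries, which also share the split along the first principal component.

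Markers of cell types that a culture could hold beside the line were measured as well. The summed level of 10 fibroblast markers ran from 24.5 to 36.1 CPM in shNC and from 17.3 to 21.6 CPM in shECM1, with COL3A1, PDGFRA and FAP at 0 counts in every library. That of 10 immune markers ran from 75.4 to 192.4 CPM in shNC and from 49.1 to 78.1 CPM in shECM1, most of it from CD68, with PTPRC, CD3E and MS4A1 at 0. That of 8 endothelial markers ran from 11 to 13.9 CPM and from 8.84 to 9.47 CPM, with KDR and EMCN at 0. That of 8 embryonic kidney markers ran from 38.9 to 42.2 CPM and from 30.9 to 37.1 CPM, with EYA1 and SALL1 at 0. The fibroblast, endothelial and kidney sums were lower in every shECM1 library than in any shNC library, as MUC2 and MUC13 were, and the immune sums overlapped. Few genes carried these sums. In shNC and shECM1, COL1A1 had means of 17.6 and 8.38 CPM and LUM of 10.8 and 9.23 among the fibroblast markers. VWF had 7.83 and 6.11 CPM among the endothelial markers, and PAX8 had 34.9 and 30.1 among the kidney markers. The part of these markers in the members' values was not tested.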

How the data were processed

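RNA of 6 SW620 libraries, 3 shNC and 3 shECM1, was read from 1 table of whole-number read counts per gene, deposited by the authors without normalization. The tools named per the submitters' processing notes are STAR, fastp, Seurat, DESeq2 and featureCounts, and the builds are GRCh38 and hg38. What each tool did, the annotation and the strand setting are not stated. Columns were matched to samples by the letters and numbers of their names. Of 20476 rows, 20244 matched GENCODE 29, which gave coordinates, exon lengths and GC content.

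Genes were kept by edgeR's filterByExpr (12576 genes), scaled by TMM and tested with edgeR 4.0.16's quasi-likelihood test (R 4.3.3), with Benjamini-Hochberg adjustment over all genes tested and a threshold of 0.05. DESeq2 1.42.0, limma 3.58.1 (voom), other scalings, other filters, a replicate block, leaving out each library and an offset for GC content were alternatives. Log2 CPM used a prior count of 2. The code was tested on simulated counts. All 10 members are named. From each list, where edgeR called none, the 2 tested genes of highest mean CPM and the 2 with the largest absolute log2 fold change at a mean log2 CPM of at least 1 are named, except 1 goblet product that is not reported here. For members with a mean of at least 5 CPM, the 3 genes of highest Pearson correlation are named. Other genes (among them CDX2, PDIA3, VIL1, CDH17, KRT20, LGALS4, HES1, MUC5B, MUC6 and AGR3) were chosen after their values were seen. The members and gene lists were chosen with earlier results of these data known. With separate cultures not stated, the p-values cover just the spread among libraries, which may be technical.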

Additional observations from a re-analysis of the deposited data

How the results depend on the processing

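Over all genes, edgeR called 0 genes in the 6 libraries (2827 at an unadjusted p under 0.05), 505 with no count filter, and 0 to 3037 when 1 library was left out, the 3037 without shNC replicate 2, and DESeq2 called 689. Of the members, 0 were called in the 6 libraries, 2 with no count filter, 2 by DESeq2 and 0 to 5 with 1 library left out. Of the 88 listed genes tested beside the members, 5 were called with no count filter, 5 by DESeq2 (ELF3, JAG1, MCAM, MUC5AC and ST3GAL1) and 0 to 22 with 1 library left out, the 22 without shNC replicate 2, where DESeq2 called 5.48% of all genes and edgeR without that library 23.9%. Members at an unadjusted p under 0.05 numbered 4, and 2 to 6 with 1 library left out. No member changed sign under any alternative run. SPDEF and TFF1 were removed by the filter of 50 counts in 3 libraries, so they have no value there. With the replicate block, 0 genes and 0 members were called, and the log2 fold change of MUC2 was -1.54. The deviations of same-numbered libraries from their group means correlated at -0.0703, -0.0459 and -0.181, and no library correlated best with its own number. Deviations from a group's own mean depend on each other, so these values cannot decide whether same-numbered libraries share a culture or batch. SPDEF had 8 to 15 counts per library, and MUC12 and CHGA had too few to be tested.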

Other observations

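Paneth and tuft cells are the other secretory or sensory types of the intestinal epithelium. Of 10 Paneth cell genes, DEFA6, REG1A and REG3A had 0 counts in every library and 4 were tested, with 3 negative and 1 positive log2 fold changes. LYZ, the antibacterial lysozyme, was at 11.8, 5.17 and 15.8 CPM in shNC and at 4.86, 5.18 and 6.66 CPM in shECM1, with overlapping groups, and PRSS2, a trypsinogen, was at 9.45 ± 0.841 and 12.9 ± 1.18 CPM (SD, n = 3 each). Of 12 tuft cell genes, HPGDS and GFI1B had 0 counts in every library and 4 were tested, with 2 in each direction. PTGS1, a cyclooxygenase, was at 39.5, 23.9 and 64.6 CPM in shNC and at 19.3, 20.1 and 11.3 CPM in shECM1 (log2 fold change -1.34 ± 0.32 SE), and AVIL, an actin-binding protein, was at 1.95, 3.59 and 0.931 CPM in shNC and at 3.87, 4.23 and 5.49 CPM in shECM1 (1.07 ± 0.39 SE). Both separated the groups, in opposite directions, as 24.4% of all genes tested did in either direction. Neither was called by edgeR or DESeq2 in the 6 libraries, and edgeR called both without shNC replicate 2 (adjusted p = 0.000792 for PTGS1 and 0.00436 for AVIL), as it called 23.9% of all genes. These genes were chosen after their values were seen.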
